A study of Mus musculus with 10 samples.

Results

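Tumour necrosis factor (Tnf), its receptors Tnfrsf1a and Tnfrsf1b, and 7 genes of the NF-kB pathway that TNF switches on (Tnfaip3, Nfkbia, Nfkbiz, Nfkb1, Nfkb2, Relb and Birc3) were described across the libraries of the series. They were taken by gene symbol, and each of the 10 symbols matched 1 row of the 55487 gene rows in the deposited table. The series compared mice with the wild-type Ptpn22 gene (WT) and mice carrying S452A, a serine-to-alanine change in Pep, the phosphatase that Ptpn22 encodes. MC38 cells, an established colon carcinoma line from mouse, were injected when the animals were 8 weeks old, and 18 days later the tumours were digested with collagenase. Cells labelled CD8+ T cells were sorted and sequenced in bulk, with 5 libraries of WT and 5 of S452A, each labelled as a separate mouse. The strain, the sex and whether other cells of the mice carry the change are not given in the labels, and the design text of the series spells the change S425A.

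TNF is a cytokine made as a membrane protein by activated macrophages and T cells and released by a protease. It binds TNFR1 (gene Tnfrsf1a), which most cells carry, and TNFR2 (gene Tnfrsf1b), which is found mainly on immune and endothelial cells. Receptor binding activates a kinase that marks the inhibitor IkB alpha (gene Nfkbia) for degradation, so that NF-kB dimers enter the nucleus. NF-kB then raises the transcription of Tnf itself, of its own inhibitors and of its own subunits, and these inhibitors shut the signal off again.

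The values are TPM, the share of a gene among all transcripts of its library after division by transcript length, so levels of different genes can be set side by side. Differences and slopes are on the log2(TPM + 1) scale. TPM keeps no read counts, so the depth of the libraries is unknown and no counting interval can be given. The labelled cell type was checked against marker transcripts, and T cell markers were far below macrophage markers in every library. The summed level of 10 macrophage markers was 17677 to 24651 TPM in WT and 18547 to 24108 TPM in S452A, and all 10 averaged at least 1 TPM. That of 8 T cell markers was 12.1 to 126 TPM in WT and 15 to 135 TPM in S452A, with none at 0 in all libraries. The values below are therefore those of mixed libraries rich in macrophage transcripts, and in bulk samples fewer cells of a type and less RNA per cell cannot be told apart.

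Tnf was among the most abundant transcripts and varied more between libraries than any other gene of the set. Tnf (ENSMUSG00000024401.14, GRCm38 chromosome 17, 35199381 to 35202007, minus strand) was at 629, 1535, 1022, 1480.0 and 1149 TPM in WT libraries 1 to 5. The S452A mice had 1703, 958, 1866, 2378 and 975 TPM, here and for the genes that follow in the order of mouse 1 to mouse 5. The lowest library was WT 1 and the highest S452A 4, a 3.78-fold range, and the genotypes overlapped, with 3 S452A libraries above the highest WT library and 2 within the WT range. Its mean of 1369 TPM was above that of 99.1% of the 13930 genes tested. The SD of Tnf over the 10 libraries was 0.57 on the log2 scale, where the median over the 3895 tested genes of at least 30 TPM was 0.22.

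The start of the Tnf gene is shown because all other measurements here are set against it, and that of Nfkbia because it carries the classical inhibitor, with the Tnfrsf1b window for the receptor that varied with Tnf. The windows hold the 250 bases before the transcription start, from RefSeq on GRCm38.p6, 5′ to 3′ on the strand of the gene. Capitals mark matches on either strand to the NF-kB consensus decamer.
Tnf, chr17:35202008-35202257, minus strand: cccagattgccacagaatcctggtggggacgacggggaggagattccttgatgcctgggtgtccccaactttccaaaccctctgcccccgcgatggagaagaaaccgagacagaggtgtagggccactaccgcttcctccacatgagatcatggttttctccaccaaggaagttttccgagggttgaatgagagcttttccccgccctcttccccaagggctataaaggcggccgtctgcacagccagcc
Nfkbia, chr12:55492648-55492897, minus strand: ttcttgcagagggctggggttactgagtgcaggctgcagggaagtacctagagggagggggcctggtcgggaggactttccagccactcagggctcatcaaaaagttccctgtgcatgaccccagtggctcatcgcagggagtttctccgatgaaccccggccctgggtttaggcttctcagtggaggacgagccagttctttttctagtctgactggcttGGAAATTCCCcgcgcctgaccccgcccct
Tnfrsf1b, chr4:145246871-145247120, minus strand: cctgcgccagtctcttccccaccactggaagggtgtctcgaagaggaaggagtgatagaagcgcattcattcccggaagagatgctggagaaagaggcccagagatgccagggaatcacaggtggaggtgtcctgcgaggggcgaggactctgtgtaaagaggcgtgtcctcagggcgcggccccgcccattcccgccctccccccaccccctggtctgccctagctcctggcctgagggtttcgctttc
The decamer was found in 3.90% of all 32851 such windows in the RefSeq table. Of the 10 genes, 7 had a window (all but Nfkbiz, Nfkb1 and Relb), and 3 of these held the decamer, namely Nfkbia, Tnfaip3 and Nfkb2. The looser pattern of GGG, any 5 bases and CC, searched on both strands and overlapping the decamer, was in 7 of 7 windows and in 45.8% of all windows. In Nfkbia the decamer match GGAAATTCCC lay 29 to 20 bases before the start. Where a gene had several windows (2 for Tnfaip3, 3 for Nfkb2), that nearest its start in GENCODE, the source of the gene positions, was used. The RefSeq starts of Tnfaip3, Tnfrsf1a and Nfkb2 lay 247, 361 and 417 bases downstream of the GENCODE starts. Their windows thus lie within the genes as positioned here, that of Tnfaip3 nearly so. Windows of Tnfaip3 and Nfkb2 overlap annotated exons, so only the matches with up to 10 bases on each side are given.
Tnfaip3, 135 to 106 bases before the start: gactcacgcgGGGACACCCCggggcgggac
Tnfaip3, 22 to 1 bases before the start: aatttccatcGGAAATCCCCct
Nfkb2, 49 to 20 bases before the start: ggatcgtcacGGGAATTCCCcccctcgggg
Nfkb2, 21 to 1 bases before the start: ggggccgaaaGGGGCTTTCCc
The first Nfkb2 match overlaps a further match 1 base downstream. A match is a description of the letters only, and the absence of the decamer from the Tnf and Tnfrsf1b windows says only that it is not in these 250 bases.

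The receptor genes differed in level and in range. Tnfrsf1b (ENSMUSG00000028599.10, chromosome 4, 145213463 to 145246870, minus strand), for TNFR2, was at 208, 367, 246, 417 and 249.9 TPM in WT libraries 1 to 5 and at 359.6, 228, 543, 515 and 258 TPM in S452A libraries 1 to 5. It was lowest in WT 1, as Tnf was, and highest in S452A 3 and S452A 4, the libraries with the highest Tnf. Tnfrsf1a (ENSMUSG00000030341.17, chromosome 6, 125349362 to 125362484, plus strand), for TNFR1, was at 38.2, 42.8, 44.3, 43.9 and 38.8 TPM across the WT mice and at 41.4, 33.5, 38.1, 33.3 and 42.9 TPM across the S452A mice. Its whole range was 1.33-fold, against 2.61-fold for Tnfrsf1b. The lowest Tnfrsf1a was in S452A 4, with the most Tnf, and it was nearly as low in S452A 2, with only 958 TPM of Tnf. TNFR2 transcripts were more abundant than TNFR1 transcripts in every library, by 5.46-fold in WT 1 to 15.5-fold in S452A 4.

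Among the inhibitors, Nfkbia was the most abundant gene of the set. Nfkbia (ENSMUSG00000021025.8, chromosome 12, 55489410 to 55492647, minus strand), which encodes IkB alpha, was at 1184, 1552, 1251, 1651 and 1167 TPM across the WT mice and at 1398, 1279.9, 2075, 2062 and 1479 TPM across the S452A mice. Its mean was 1.1-fold that of Tnf, and it lay above Tnf in 8 of 10 libraries, all but S452A 1 and S452A 4, so the order of these neighbours was not the same in every library. Tnfaip3 (ENSMUSG00000019850.11, chromosome 10, 19000910 to 19015657, minus strand), for the ubiquitin-editing enzyme A20 that dismantles the receptor signal, was at 237, 350.4, 267, 394 and 327 TPM across the WT mice and at 398, 277, 569.8, 607 and 336 TPM across the S452A mice. Again WT 1 was lowest and S452A 4 highest, with 3 S452A libraries above all WT libraries. Nfkbiz (ENSMUSG00000035356.17, chromosome 16, 55811375 to 55838899, minus strand), for the nuclear IkB zeta that promotes secondary NF-kB targets, was at 172, 265, 171, 248 and 209 TPM across the WT mice and at 229.7, 158, 283, 297 and 222 TPM across the S452A mice. S452A 2 had the lowest and S452A 4 the highest level, so the S452A libraries spanned all WT values.

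The subunit genes were less abundant and varied less than Tnf. Nfkb1 (ENSMUSG00000028163.17, chromosome 3, 135584655 to 135691547, minus strand), for p105 and its product p50, was at 78.0, 85.3, 80.3, 109.5 and 90.8 TPM across the WT mice and at 113, 91.3, 140.0, 152 and 76.6 TPM across the S452A mice. S452A 3 and 4 stood highest and S452A 5 lowest, a 1.98-fold range. Nfkb2 (ENSMUSG00000025225.15, chromosome 19, 46304320 to 46312385, plus strand), for p100 and p52 of the non-canonical arm, was at 65.7, 87.5, 82.3, 105 and 72.0 TPM across the WT mice and at 90.5, 79.8, 117, 123 and 66.2 TPM across the S452A mice. Relb (ENSMUSG00000002983.17, chromosome 7, 19606217 to 19629438, minus strand), the partner of p52, was at 41.2, 59.5, 45.2, 56.6 and 48.6 TPM across the WT mice and at 47.0, 39.0, 73.3, 60.2 and 41.4 TPM across the S452A mice. Both were highest in S452A 3 and 4 and overlapped widely between genotypes. Psd and AC114539.1 overlap Nfkb2 on the other strand (14.7 and 7.71 TPM on average) and Gm43430 overlaps Nfkb1 on the same strand (1.51 TPM). The library kit keeps strand, but whether the counting used it is not given in the sources used here.

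Birc3 (ENSMUSG00000032000.17, chromosome 9, 7848699 to 7873186, minus strand), for the ubiquitin ligase cIAP2 of the TNF receptor complex, was at 82.4, 82.8, 98.2, 111 and 93.6 TPM across the WT mice and at 108, 83.4, 137, 119 and 89.5 TPM across the S452A mice. It was lowest in WT 1 and highest in S452A 3, with a 1.66-fold range. In order of mean level the set ran Nfkbia, Tnf, Tnfaip3, Tnfrsf1b, Nfkbiz, Nfkb1, Birc3, Nfkb2, Relb and Tnfrsf1a. Nfkb1 and Birc3 could not be ordered, each being the higher in 5 of 10 libraries, whereas Tnf exceeded Tnfaip3 and Nfkb2 exceeded Relb in 10 of 10.

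**Figure D1:**
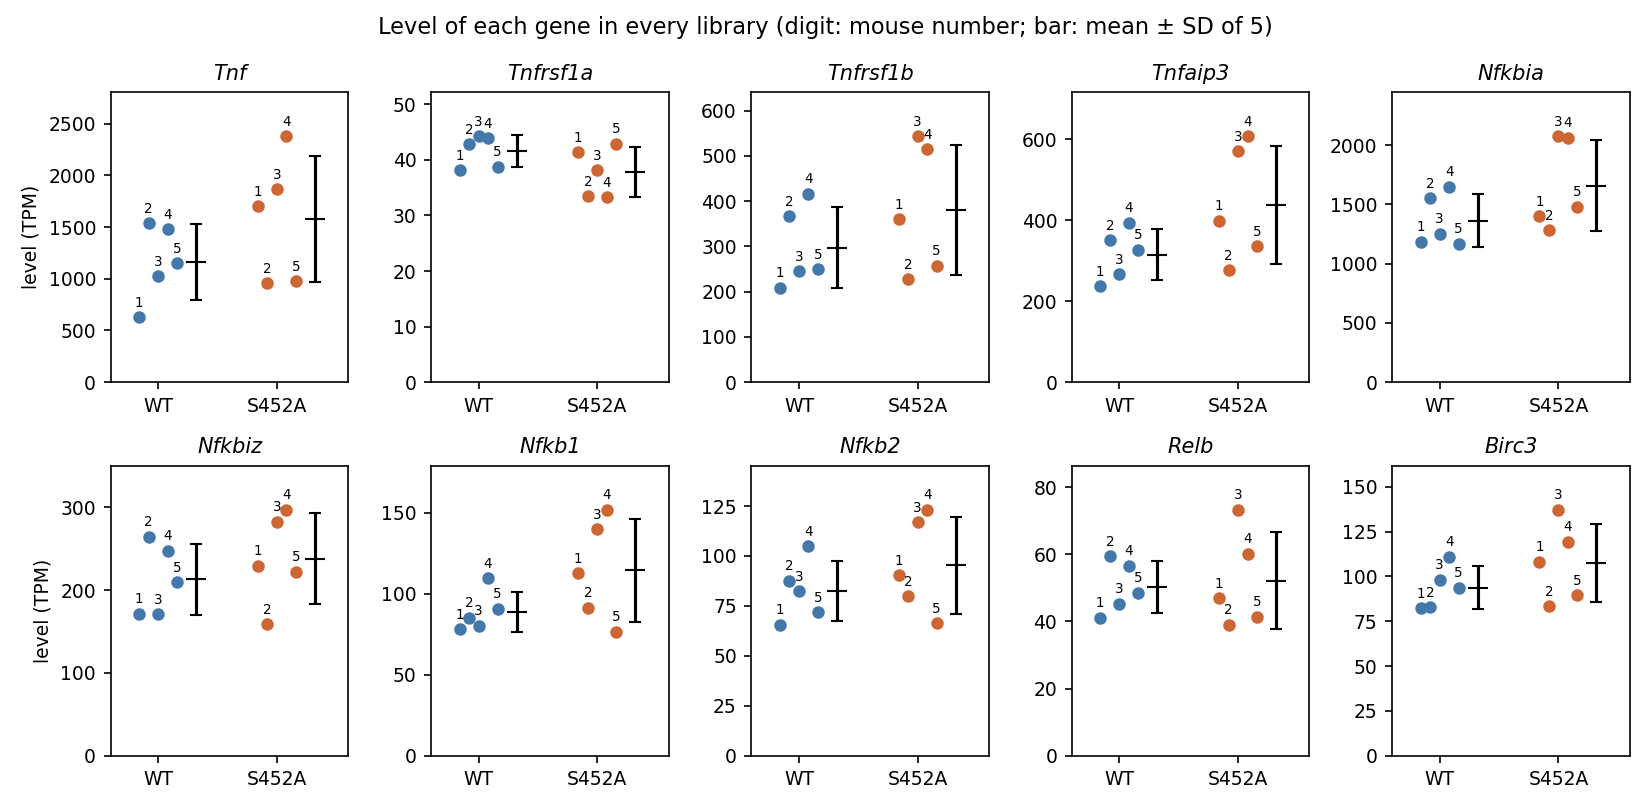
Level in TPM (linear axis from 0) of each of the 10 genes in every library, WT in blue and S452A in orange, with the mouse number at each point and the mean ± SD of 5 beside each group. The genotypes overlap for every gene, and S452A libraries 3 and 4 are the 2 highest for 9 of the 10 genes, all but Tnfrsf1a. These 9 genes vary together, and the share of all tested genes with the same 2 highest libraries was not counted.

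The genotype comparison asked whether the serine change alters these genes, and none passed. Tnf averaged 1163 ± 369 TPM in the WT group and 1576 ± 610 TPM in the S452A group (SD, n = 5). On the log2 scale it differed by 0.41, with an SE of 0.29 and a 95% interval of -0.22 to 1.05 (limma adjusted p = 0.952). Tnfaip3 was at 315 ± 63.4 and 438 ± 145 TPM, a difference of 0.43 (SE 0.22, interval -0.04 to 0.91). Tnfrsf1b differed by 0.32 (SE 0.26), Nfkb1 by 0.33 (SE 0.18), Nfkbia by 0.27 (SE 0.16) and Nfkb2 by 0.19 (SE 0.18). Birc3 differed by 0.18 (SE 0.14), Nfkbiz by 0.15 (SE 0.18) and Relb by 0.03 (SE 0.18), while Tnfrsf1a was the only gene with a lower mean in S452A, by -0.14 (SE 0.11). Limma adjusted p over all 13930 genes was 0.952 to 0.994 for the 10 genes, and 0 of them had an unadjusted p under 0.05. The share of all tested genes that passed was 0.00718%, in either direction, and 4.74% were under 0.05 before adjustment. The 1 gene that passed, Gm36079, is in none of the lists used here and is named, after its value was seen, only as the sole call.

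The means of 9 of the 10 genes were higher in S452A, with a median difference of 0.23, whereas 46.6% of all tested genes had a higher mean and their median difference was -0.02. These genes vary together between libraries, so their shared direction is not 9 separate observations. For 0 of the 10 genes were the libraries of the genotypes separate, against 0.646% of all tested genes. The spread within S452A was wider than within WT for all 10, with an SD of Tnf of 0.59 against 0.52 and of Nfkb1 of 0.41 against 0.19 on the log2 scale, a difference that was not tested. The share of all tested genes with a wider spread in S452A was not counted. For 9 of the 10 genes S452A 3 and 4 were the 2 highest libraries, so these spreads are not separate observations. Over all 10 libraries the intervals, not adjusted for the number of genes, left room for a 2-fold higher level of Tnf in S452A. They excluded one for the other 9, but narrowly for Tnfrsf1b and Tnfaip3, with upper limits of 0.89 and 0.91. Without WT 4 these 2 genes differed by 0.45 (SE 0.27) and 0.52 (SE 0.23). Without S452A 2 they differed by 0.48 (SE 0.25) and 0.58 (SE 0.20). For Tnfrsf1b and Tnfaip3 the exclusion therefore did not hold in every subset of the libraries. Leaving out 1 library moved the Tnf difference between 0.21 (without WT 1) and 0.57 (without S452A 2), with 0.24 without S452A 4. It moved Tnfrsf1b between 0.17 and 0.48, Nfkb1 between 0.22 and 0.46, Nfkb2 between 0.09 and 0.31, Nfkbiz between 0.06 and 0.29 and Birc3 between 0.09 and 0.27, with the lowest values without S452A 3 for Tnfrsf1b and Birc3 and without S452A 4 for the other 3. Tnfaip3 moved between 0.30 and 0.58 and Nfkbia between 0.18 and 0.36. Without S452A 2 the unadjusted limma p of Tnfaip3 and Nfkbia was 0.0136 and 0.047, and neither passed (limma adjusted p = 0.729 and 0.731). The direction of Relb rested on single libraries: it was -0.04 without WT 1, -0.01 without WT 3, -0.10 without S452A 3 and -0.03 without S452A 4. The summed level of 5 fibroblast markers was 83.9 to 185 TPM in WT and 45.5 to 97.7 TPM in S452A, with none at 0 in all libraries, and its part in these differences was not tested.

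Between libraries, the correlation with Tnf was high for Tnfrsf1b and near 0 for Tnfrsf1a. Over the 10 libraries, 8 of the 9 other genes had a Pearson correlation with Tnf above 0.75, and Tnfrsf1a had r = -0.137. The cut of 0.75 was not among the planned settings, and the lowest of the 8, Birc3 at 0.757, lay just above it. Of the 7635 other tested genes of at least 10 TPM on average, 7.10% were above 0.75. Tnfrsf1b was closest, with r = 0.928 (permutation p = 0.00016, Spearman rho = 0.903, p = 0.00073), followed by Tnfaip3 with r = 0.924 (permutation p = 2e-05, rho = 0.927, p = 0.00028). Without WT 1 and S452A 4, the libraries farthest from the median of Tnf, they were at 0.932 and 0.860 (exact permutation p = 0.00305 and 0.00161).

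For the subunits, Nfkb2 had r = 0.889 (permutation p = 0.00048, rho = 0.903, p = 0.00093), Nfkb1 0.860 (p = 0.00097, rho = 0.806, p = 0.00686) and Relb 0.800 (p = 0.00566, rho = 0.903, p = 0.00084). Among the other feedback genes, Nfkbiz had r = 0.866 (permutation p = 0.00115, rho = 0.879, p = 0.00163), Nfkbia 0.816 (p = 0.00374, rho = 0.721, p = 0.0238) and Birc3 0.757 (p = 0.011, rho = 0.770, p = 0.0129). Without the same 2 libraries Nfkb2 was at 0.815, Nfkb1 at 0.812, Relb at 0.835, Nfkbiz at 0.828 and Nfkbia at 0.709, with exact permutation p from 0.0096 to 0.0429. Birc3 was at 0.686 there (exact permutation p = 0.0568), against 0.757 over all 10 libraries. Its fall was smaller than that of Nfkbia, from 0.816 to 0.709. For Tnfrsf1a, r was -0.137 (permutation p = 0.696, rho = -0.212, p = 0.558), and leaving out 1 library moved it between -0.350 and 0.268. These p-values are not adjusted, and after adjustment over all genes, given with the slopes, Tnfrsf1b and Tnfaip3 were the genes that passed.

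The correlations were also computed within genotypes. With each library taken relative to the mean of its genotype, r was 0.919 for Tnfrsf1b, 0.918 for Tnfaip3, 0.877 for Nfkb2, 0.861 for Nfkbiz, 0.848 for Relb, 0.835 for Nfkb1, 0.779 for Nfkbia and 0.714 for Birc3, with unadjusted exact permutation p within genotypes from 0.00132 to 0.0442. For Tnfrsf1a it was 0.0654 (exact permutation p = 0.864). The 9 relations form a family, and the p-values adjusted for multiple testing are those of the fit over all genes that follows. Between pairs of all 10 genes, r was 0.663 to 0.947 (median 0.864) over the 36 pairs without Tnfrsf1a, and -0.450 to 0.0217 over the 9 pairs with it. All these correlations share the same libraries and the same TPM scaling.

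**Figure D2:**
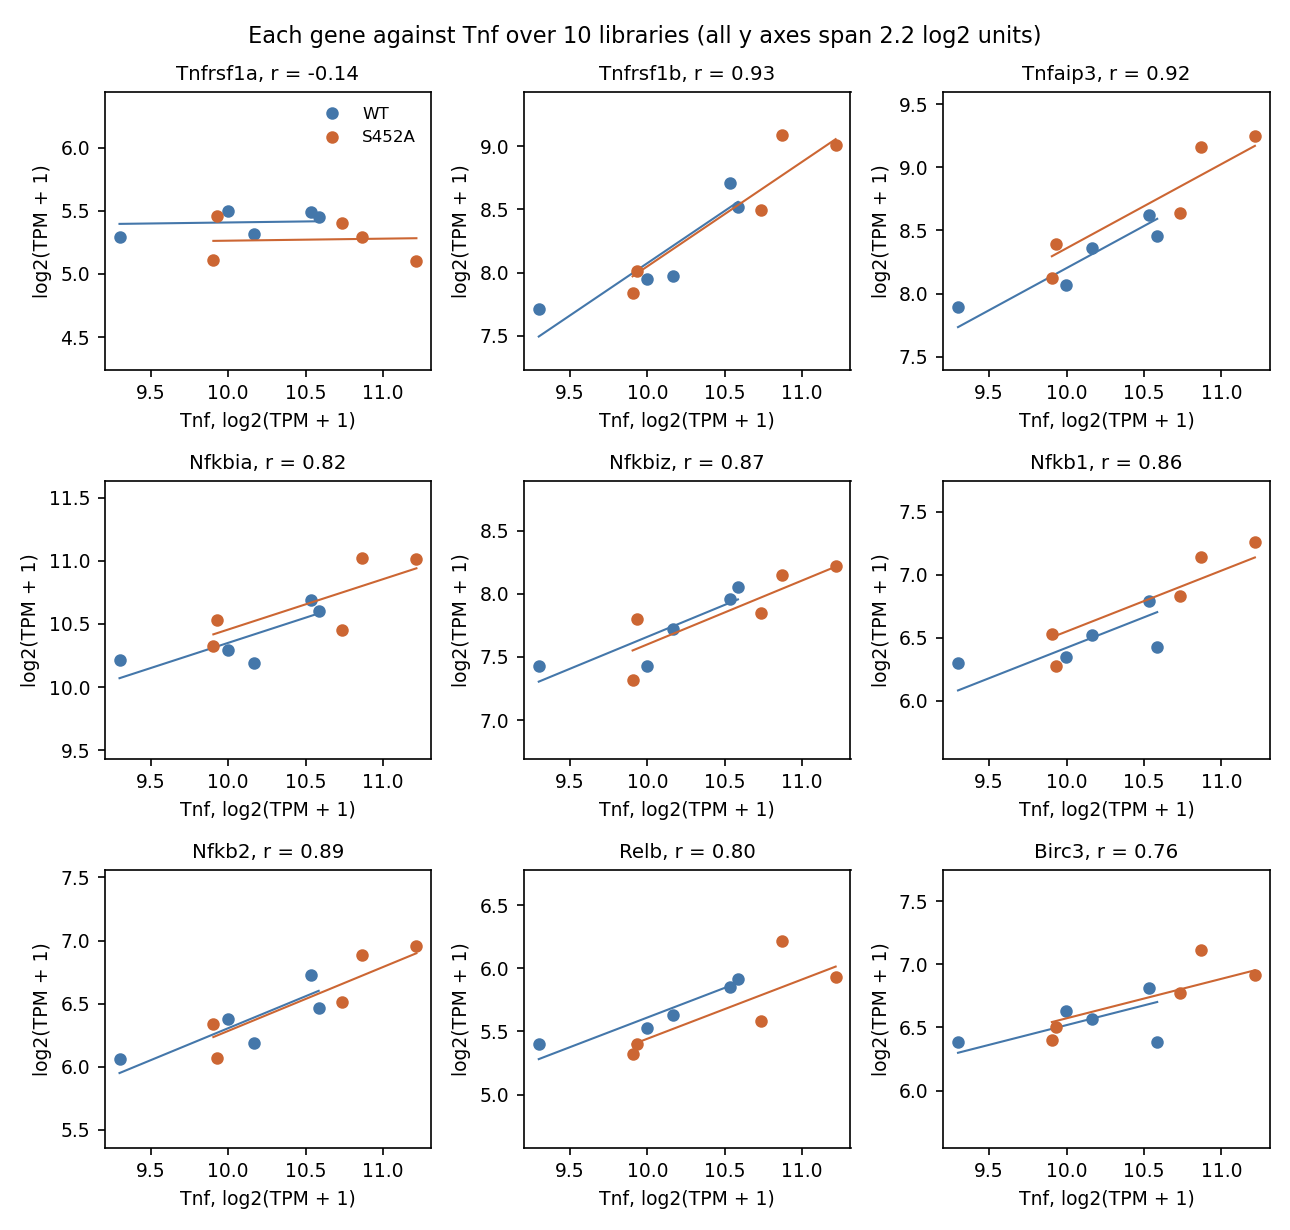
Each of the 9 other genes against Tnf, both as log2(TPM + 1), one point per library (WT blue, S452A orange), with the limma slope drawn through the mean of each genotype. Tnfrsf1a is flat (slope 0.02), and the lines of the other 8 go up with Tnf, those of Tnfrsf1b and Tnfaip3, which alone passed, most steeply (0.83 and 0.67).

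The slope on Tnf, the log2 change of a gene per log2 unit of Tnf at a given genotype, was fitted for all 13929 genes other than Tnf. Tnfrsf1b rose by 0.83 (SE 0.12, 95% interval 0.56 to 1.1, limma adjusted p = 0.0241) and Tnfaip3 by 0.67 (SE 0.11, interval 0.43 to 0.90, adjusted p = 0.0293). The other 7 genes did not pass over all genes. Nfkbiz had a slope of 0.51 (SE 0.11, limma adjusted p = 0.0721), Nfkb2 of 0.51 (SE 0.11, 0.0693), Nfkb1 of 0.48 (SE 0.12, 0.096) and Relb of 0.47 (SE 0.12, 0.102). Nfkbia had a slope of 0.40 (SE 0.11, limma adjusted p = 0.14), Birc3 of 0.31 (SE 0.12, 0.248) and Tnfrsf1a of 0.02 (SE 0.11, 0.964).

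Thus 2 of 9 genes passed with a positive slope, where 0.503% of all genes did, and 8 of 9 had an unadjusted p under 0.05 with a positive slope, where 8.5% of all genes did and 5.99% did so with a negative slope. These shares include genes at far lower levels than the 9. Among genes of at least 5 TPM in at least 5 libraries, 119 of 9997 passed with a positive slope, and again 2 of the 9. All 9 slopes were above 0, as were 48.4% over all genes. The median slope was 0.48 for the 9 genes and -0.01 for all genes. For 8 of the 9 the interval lay below 1, the value at which a gene would rise in proportion to Tnf, and only that of Tnfrsf1b included it. The fit takes the Tnf values as free of error. The ratio of Tnf to Nfkbia was lowest in WT 1 (0.531) and highest in S452A 1 (1.22), and that of Tnf to Tnfaip3 ran from 2.66 in WT 1 to 4.38 in WT 2.

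The calls for Tnfrsf1b and Tnfaip3 did not hold in every subset of the libraries, although the slopes stayed positive. Both were lost without WT 1, WT 4, S452A 2, S452A 4 or S452A 5, and that of Tnfaip3 also without WT 3. Leaving out each library in turn gave slopes of 0.77 to 0.97 for Tnfrsf1b (limma adjusted p 0.0187 to 0.123) and 0.60 to 0.77 for Tnfaip3 (0.018 to 0.145). With the macrophage marker mean in the fit the slopes were 0.84 and 0.63 and did not pass (limma adjusted p = 0.0726 and 0.097). With no filter on low genes they did not pass either (0.0753 and 0.0788). That setting adds genes to the adjustment, and the unadjusted limma p also rose, from 3.1e-05 to 9.27e-05 and from 5.68e-05 to 0.000127. With the T cell marker mean in the fit the slopes were 0.91 and 0.73 and passed (limma adjusted p = 0.0122 and 0.0177), as did Nfkb2 at 0.58 (0.0318). With the mean of 10 dissociation and early-response genes the slopes were 0.79 and 0.61 and passed (0.0406 and 0.0401).

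Tnf itself was set against marker lists of 9 kinds, and 0 of these relations passed (Benjamini-Hochberg adjusted p at least 0.577). For the macrophage list r was 0.476 (permutation p = 0.168, rho = 0.503, p = 0.146) and 0.623 without the 2 libraries named above. The smallest p of the 9 was that of 3 B cell markers, whose summed level was at most 6.0 TPM, with r = -0.594 (permutation p = 0.0800, rho = -0.479, p = 0.167) and -0.357 without those libraries. For the T cell list r was -0.309 (permutation p = 0.385, rho = -0.261, p = 0.470) and -0.191 without them. The dissociation and early-response genes (Fos, Jun, Egr1 and others), which tissue digestion can raise, had r = 0.275 (permutation p = 0.440, rho = 0.309, p = 0.385) and 0.0299 without them. The part of these cell contents in the relations to Tnf was not tested beyond the fits with the macrophage, T cell and dissociation list means. The means of the other lists, that of the B cell markers included, were not put in a fit.

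**Figure D3:**
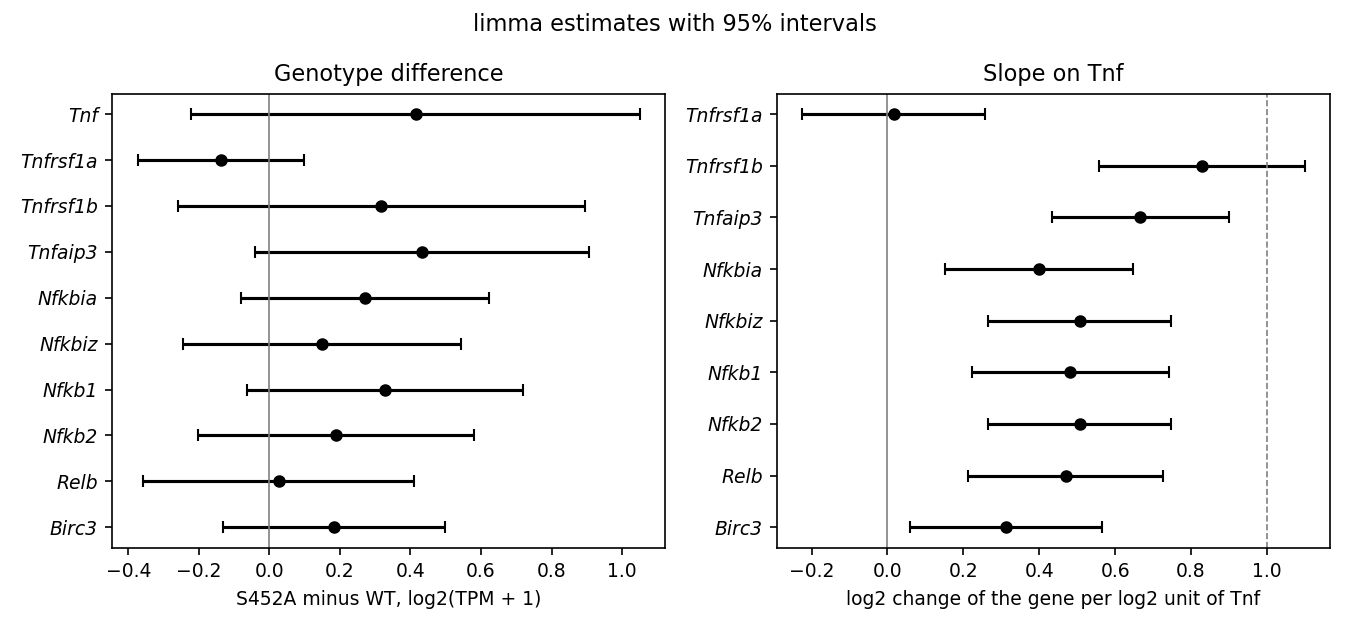
Left, log2 difference S452A minus WT of the 10 genes. Right, slope on Tnf of the 9 others, with a dashed line at 1. Points are limma estimates and bars 95% intervals. All intervals on the left include 0, and on the right all but that of Tnfrsf1a lie above 0.

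Neither the slopes nor the levels at equal Tnf differed detectably between genotypes. The difference in slope, S452A minus WT, was -0.19 to 0.42 over the 9 genes, with 0 passing limma (smallest unadjusted p = 0.0794, adjusted p = 0.999) and 0 with an unadjusted p under 0.05. This test was passed by 0% of all genes, and 4.16% were under 0.05 before adjustment. With Tnf in the fit, the genotype difference was -0.17 for Relb, 0.16 for Tnfaip3 and between these for the other 7, with 0 passing limma and 0 with an unadjusted p under 0.05. That test was passed by 0.00718% of all genes, and 3.44% were under 0.05 before adjustment. The slope of Nfkb1 had the widest estimated difference, 0.42 (SE 0.21, interval -0.06 to 0.89).

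The contrast between the receptors was examined through their ratio. The Tnfrsf1b to Tnfrsf1a ratio was 5.46 to 9.5 in WT and 6.0 to 15.5 in S452A, overlapping between genotypes. On the log2 scale its mean was 2.76 ± 0.36 for WT against 3.22 ± 0.61 for S452A (SD, n = 5), a difference of 0.46 that did not pass (2-sided exact permutation p = 0.183, where the smallest possible is 0.00794). It was 0.28 without S452A 4, 0.31 without S452A 3 and up to 0.62 (without S452A 5) when 1 library was left out. The log2 ratio had r = 0.907 with Tnf over the 10 libraries, a description chosen after the values had been seen. Since Tnfrsf1a varied little, the ratio is close to Tnfrsf1b itself, and this r is no support separate from that of Tnfrsf1b.

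**Figure D4:**
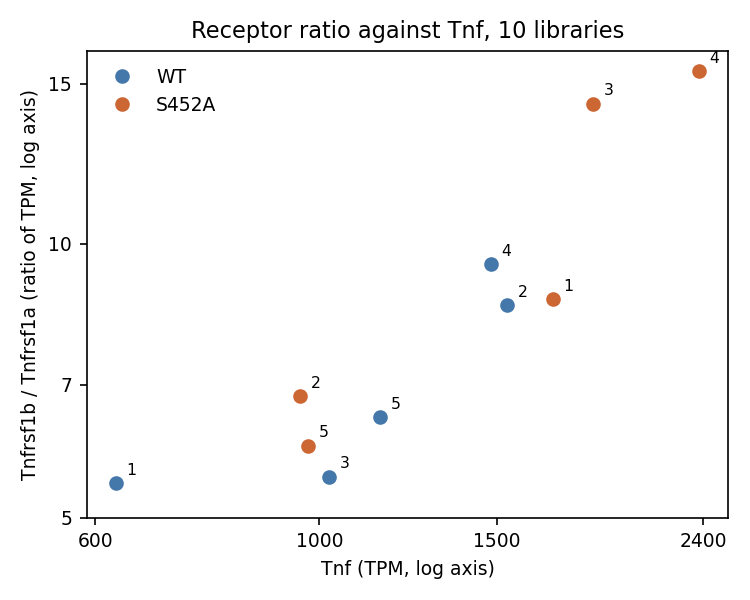
Ratio of Tnfrsf1b to Tnfrsf1a TPM against Tnf TPM, both on log axes, one point per library with its mouse number (WT blue, S452A orange). The ratio runs from 5.46 in WT 1, with the least Tnf, to 15.5 in S452A 4, with the most.

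Other genes of the pathway were taken as 6 lists holding 64 genes, of which 63 were tested and 55 had a positive slope on Tnf. In all, 7 passed with a positive slope and 0 with a negative one, with a median slope of 0.31. Over all genes 0.503% passed with a positive slope and 48.4% had one. Without S452A 4, 0 of all genes passed, these 7 included, and without S452A 5 only 3 of all genes did. Lists are described by counts and medians only.

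Inflammatory targets of NF-kB had the highest median slope of the lists. Of 18 genes 18 had a positive slope (median 0.65) and 6 passed, where 48.4% of all genes had a positive slope and 0.503% passed with one. None of the 6 passed without S452A 4. Ccl5, a chemokine for T cells and monocytes, had a slope of 0.98 (SE 0.12, limma adjusted p = 0.0159), Cxcl2, a neutrophil chemokine at 3665 TPM on average, 0.96 (SE 0.13, 0.0165) and Icam1, an adhesion molecule, 0.68 (SE 0.09, 0.0165). Il6, Il1a and Ccl3, named because they passed, had slopes of 0.86, 0.97 and 0.69 (limma adjusted p = 0.029, 0.0327 and 0.0343). Between genotypes 0 of 18 passed, and Plaur, the urokinase receptor, had the smallest p (mean 251 ± 28.3 TPM for WT, 355 ± 85.4 TPM for S452A, SD, n = 5, log2 difference 0.47, limma adjusted p = 0.952).

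Genes for the making and shedding of TNF had a positive slope in 9 of 9 (median 0.27), and 1 passed. This was Mapkapk2, the kinase MK2 that stabilises Tnf mRNA, at 0.58 (SE 0.10, limma adjusted p = 0.0363). Adam17, the protease that releases TNF from the membrane, had 0.34 (0.143) and Rhbdf2, which brings that protease to the surface, 0.46 (0.166), neither of which passed limma. Adam17 also had the smallest p between genotypes, 0.23 (SE 0.14, limma adjusted p = 0.952). Other inhibitors and feedback genes had a positive slope in 10 of 10 (median 0.26), with 0 passing. Tnip3 and Tnip1, partners of A20, had 0.70 and 0.57 (limma adjusted p = 0.089 and 0.102), and Zc3h12a, an RNase that degrades inflammatory mRNAs, 0.49 (0.173). Nfkbie, for IkB epsilon, had the smallest p between genotypes, 0.20 (SE 0.15, limma adjusted p = 0.952).

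Among 5 genes for other subunits and the non-canonical arm, 4 had a positive slope (median 0.40) and 0 passed. Traf1 had 0.64 (limma adjusted p = 0.089), Rela, for the p65 subunit, 0.40 (0.096) and Traf3, which restrains the non-canonical arm, 0.50 (0.217). Traf3 also had the smallest p between genotypes, 0.38 (SE 0.22, limma adjusted p = 0.952). The 20 genes of the receptor complex and kinases had 13 positive slopes, a median of 0.07 and 0 passing. The smallest p among them was that of Cflar, the caspase-8 inhibitor cFLIP, at 0.64 (SE 0.12, limma adjusted p = 0.0535), followed by Tab2 at 0.32 (0.167) and Ikbkg, the NEMO subunit of the IkB kinase, at 0.41 (0.17). Tab1, an activator of the kinase TAK1, had the smallest p between genotypes, at 8.25 ± 1.19 TPM for WT against 4.93 ± 1.05 TPM for S452A (SD, n = 5, log2 difference -0.65, SE 0.17, limma adjusted p = 0.931). Of the lymphotoxin genes beside Tnf, Lta was below the filter and Ltb, at 7.34 TPM on average, had a slope of 0.10 (SE 0.46, limma adjusted p = 0.949) and a genotype difference of 0.53 (SE 0.44, limma adjusted p = 0.952).

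**Figure D5:**
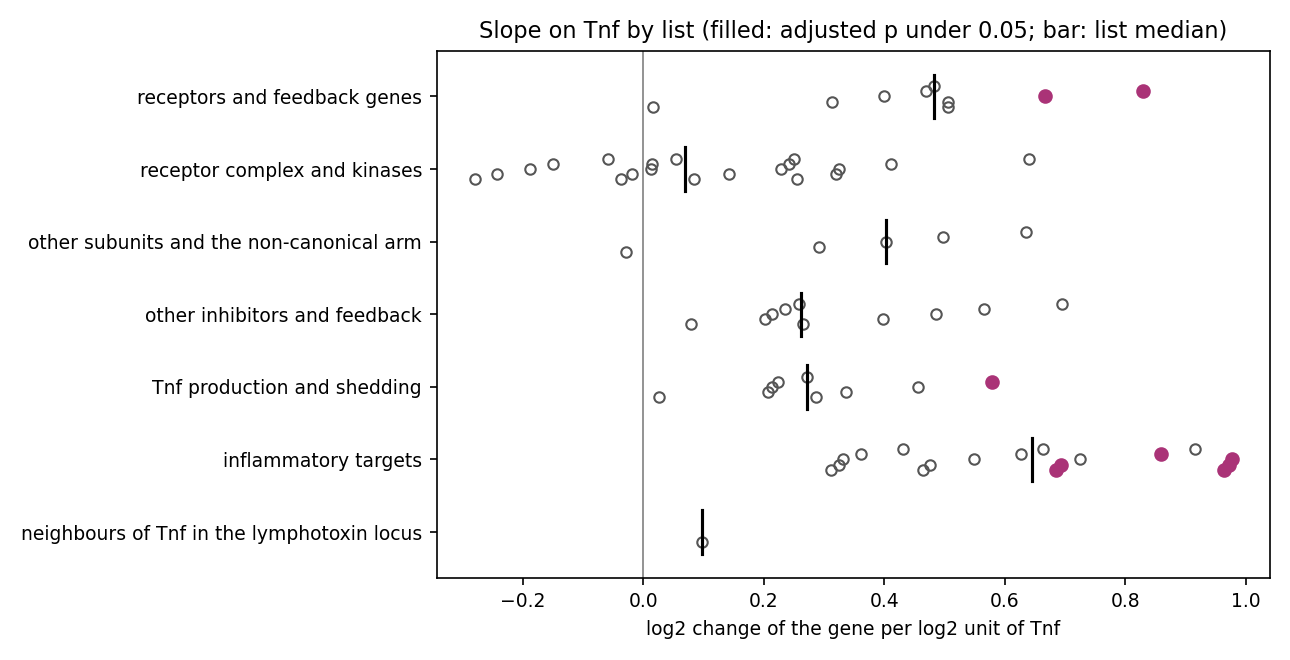
Slope on Tnf of each gene, by list, with filled points for limma adjusted p under 0.05 and a bar at each list median. The medians are 0.48 for the receptors and feedback genes, 0.65 for the inflammatory targets and 0.07 for the receptor complex and kinases.

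The genes outside the set whose pattern over the 10 libraries was most like that of Tnf, by Pearson r among genes of at least 10 TPM, are given as a description, since they were chosen by r. They were Rab7, a GTPase of late endosomes (r = 0.974, slope 0.35), Sdc4, a cell-surface proteoglycan (0.966, slope 1.0), Mmp14, a membrane-bound matrix protease (0.963, slope 0.43) and Tnfaip2, named as a TNF-induced gene (0.962, slope 1.12). Cybb, the catalytic subunit of the phagocyte oxidase (0.961, slope 0.49), Clic4 (0.958, slope 0.48), Cast, the calpain inhibitor calpastatin (0.957, slope 0.48) and Marcksl1 (0.956, slope 0.97) followed. Their r was above the 0.928 of Tnfrsf1b.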

How the data were processed

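RNA of 10 libraries was measured in bulk, with groups taken from the sample titles. The kit kept strand and 40 ng of input was used, per the labels' protocols. STAR 2.7.9a, RSEM 1.3.0 and GRCm38.p6 are named per the submitters' processing notes, without annotation release or parameters. A single TPM table was deposited by the authors. Its columns sum to 994741 to 996709, and since TPM keeps no counts, depth is unknown.

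Values were taken as log2(TPM + 1) from the deposited TPM. A gene was tested if 5 or more libraries had 1 TPM or more (13930 genes). Limma 3.58.1 in R 4.3.3 (trend, 2-sided, Benjamini-Hochberg over all tested genes, threshold 0.05) fitted genotype alone, then genotype and Tnf, then their interaction. Permutation tests of correlations used 100000 resamples at 10 libraries and were exact with fewer libraries or within genotypes, and that of the receptor ratio between genotypes was exact (Python 3.11.15, scipy 1.17.1). The fits were tested on 20 simulated data sets with 200 changed genes each, with noise independent between genes, unlike in these libraries. Of genotype differences of 0.5 on the log2 scale 20.75% were recovered, and of slopes of 0.5 17.95%. At a size of 1 these were 76.1% and 72.7%, so changes of the smaller size are mostly missed. Gene positions are from GENCODE M21. The genes, lists and tests were chosen with earlier results of these data known. The text names all 10 genes, per list the 3 of smallest p for the slope and the 1 between genotypes, and the 8 genes most like Tnf, leaving out predicted gene names. Alternatives were pseudocounts, filters, scalings, marker covariates, a mouse-number block and leaving out each library.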

Additional observations from a re-analysis of the deposited data

How the results depend on the processing

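The count of genes with a slope on Tnf, 71, depended strongly on the setting. It was 6 with no filter on low values, 127 with at least 5 TPM in 5 libraries, 20 with the macrophage markers as a covariate, 184 with the T cell markers, 39 with the dissociation and early-response genes, and 290 without the genotype term. When 1 library was left out it ranged from 0 to 135, with 7 without WT 1, 45 without WT 2, 25 without WT 3, 18 without WT 4, 135 without S452A 1, 33 without S452A 2, 34 without S452A 3, 0 without S452A 4 and 3 without S452A 5. The count among the 9 genes, 2, was 0 with no filter or the macrophage markers, 3 with the T cell markers, Nfkb2 being gained, 5 without the genotype term and 0 to 2 when 1 library was left out. With the mouse number as a replicate block, 0 genes passed, and so 0 of the 9 and 0 of the 7 on the other pathway lists. The labels do not say whether equal numbers pair the libraries. Over all tested genes, taken relative to genotype means, same-numbered libraries had r of -0.148 to 0.0743. Of the WT libraries, 0 of 5 matched best with their own number. The best matches themselves had r of only 0.0946 to 0.184, so this check cannot decide whether libraries shared a batch. With the block the slope was 0.72 for Tnfrsf1b, 0.60 for Tnfaip3, 0.54 for Nfkbiz, 0.45 for Relb, 0.36 for Nfkb1, 0.33 for Nfkb2, 0.25 for Nfkbia and 0.23 for Birc3 (limma adjusted p at least 0.572). The block changed no call between genotypes. The 1 gene passing between genotypes became 0 with at least 5 TPM in 5 libraries and ranged from 0 to 1 when 1 library was left out, being 0 without any one of the S452A libraries. In these settings 0 of the 10 genes passed between genotypes. Between genotypes the Relb difference was -0.10 to 0.12 when 1 library was left out. The Tnfrsf1a slope was -0.017 with quantile normalization, -0.036 without the genotype term and -0.049 to 0.10 when 1 library was left out, below 0 without WT 1, WT 4 or S452A 2. Its r with Tnf was 0.0654 within genotypes, 0.164 without the 2 libraries farthest from the median of Tnf and -0.350 to 0.268 when 1 library was left out. The cause of these changes with the setting was not tested. The slopes of the other 8 genes were positive in every setting. Depth cannot be judged from TPM.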
